A study of Mus musculus with 6 samples.

Results

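The immediate early genes Fos, Fosb, Junb, Egr1, Egr3, Npas4, Nr4a1, Nr4a2, Arc and Ier2 were followed in primary cell cultures of fetal mouse cortex treated with 10HDA (10-hydroxy-2-decenoic acid), a fatty acid of royal jelly. They were chosen by name, as genes that neurons switch on during activity, and all 10 were found by their Ensembl identifiers among the 43346 genes of the count table. RNA was sequenced from 6 libraries. Cultures 1, 3 and 4 each gave 1 library treated with the DMSO vehicle and 1 treated with 1 mM 10HDA, so there were 3 libraries per treatment. All cultures came from fetal cortex at gestational day 15.5, and the sample labels name Cyp19-EGFP mice and SRY+ genotype for both treatments, whereas the methods name C57BL/6 embryos. How long the cells were treated before RNA was taken, and how many fetuses a culture pooled, are not given in the sources used here. No depolarising or other activity stimulus is named, and the sources used here do not say that the cultures were kept unstimulated.

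Immediate early genes are transcribed within minutes of a signal, without new protein synthesis. In neurons, calcium entry through NMDA receptors and voltage-gated channels activates kinases that phosphorylate CREB, bound to cAMP response elements (CRE), and the SRF and ELK factors, bound to serum response elements. Most of the products are transcription factors that go on to control a second wave of genes, and their RNAs are short-lived. They are widely used to mark neurons that have recently been active.

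The libraries held from 9144736 to 13367194 counts on genes, so that 3 counts corresponded to between 0.224 and 0.328 CPM (a gene's counts after every library is scaled to the same size), a limit that covers counting error only. The 8 neuron markers, among them Tubb3 and Map2, summed to at least 4921 CPM in every library, and the 6 microglial markers to at most 1.10 CPM. In both libraries of culture 1 the Y-linked genes summed to 9.07 and 9.30 CPM, against 97.8 to 136 CPM in the other 4 libraries, although all are labelled SRY+. The fits of Egr3 and Egr1, the sign of Fos and the numbers of genes called are therefore also given without culture 1. Single genes of the other lists and the marker calls are given only with culture 1 included.

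The promoters were examined first, because the CRE is the element through which activity reaches many of these genes. From a RefSeq table (GRCm38.p6) the promoters of 6 members were searched, those of Fos, Fosb, Junb, Npas4, Nr4a1 and Nr4a2. The promoters of Egr3, Arc and Ier2 were absent from it, and Egr1 was left out of the search. The counts below therefore say nothing about these members. Within the 250 bases before the start that RefSeq gives, all 6 of these held the CRE core TGACG on either strand, which 17.8% of the 32851 promoters of the table held. Nr4a1 and Nr4a2 held 4 copies each, Fos and Npas4 held 2 each, and Fosb and Junb held 1 each. The full palindrome TGACGTCA, which contains the core, was in 0 of the 6 promoters and in 1.55% of all promoters. Within the same 250 bases, the CArG box of serum response elements was in 0 of the 6 and in 1.47% of all. Bases farther upstream were not searched, so elements there would be missed. The TATA letters TATAAA, searched on both strands, were in the promoters of Fos and Nr4a2 and in 12.4% of all. A match of letters is a description and not a measured binding site. The RefSeq start of Nr4a1 is an internal one, 12577 bases downstream of the start of the gene model whose coordinates are given below, and that of Npas4 is 345 bases downstream, so the bases searched for these 2 genes lie within the longer gene models. For Npas4 the stretch with the cores lies in an exon of that model and is not shown. To show where the core lies in the other 5, 60 bases before the RefSeq start are printed 5′ to 3′ on the strand of the gene, with the core, or CGTCA where it lies on the other strand, in capitals.
Fos, chr12:85473816-85473875, plus strand: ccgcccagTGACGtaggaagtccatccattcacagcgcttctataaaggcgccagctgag
Fosb, chr7:19310054-19310113, minus strand: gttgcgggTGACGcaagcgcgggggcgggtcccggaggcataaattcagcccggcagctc
Junb, chr8:84978803-84978862, minus strand: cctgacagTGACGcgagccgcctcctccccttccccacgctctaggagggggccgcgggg
Nr4a1, chr15:101266769-101266828, plus strand: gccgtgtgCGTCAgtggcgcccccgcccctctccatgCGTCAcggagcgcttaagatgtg
Nr4a2, chr2:57124096-57124155, minus strand: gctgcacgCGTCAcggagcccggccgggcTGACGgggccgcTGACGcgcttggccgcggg
In the Fos window the core began 66 bases before the start, and TATAAA followed it downstream in the same window. In Fosb the core began 60 bases and in Junb 106 bases before the start. In Nr4a2 the 3 copies of the window began 144, 123 and 111 bases before the start.

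In these cultures, for which no stimulus is named, the members were expressed at low to middle levels. Compared per length of the gene model, in CPM per kilobase with vehicle (mean ± SD, n = 3), Egr3 stood at 7.21 ± 2.90, Nr4a2 at 7.15 ± 0.42, Nr4a1 at 6.64 ± 1.28, Ier2 at 5.50 ± 1.69 and Npas4 at 4.90 ± 0.52. Nr4a2 and Npas4 did not overlap, with libraries at 6.78 to 7.60 and 4.56 to 5.50, while each of the 5 overlapped its neighbour in this order. Egr1 followed at 3.50 ± 0.76 and Junb at 2.997 ± 0.16 CPM per kilobase, which also overlapped each other. Fos at 1.01 ± 0.13 and Arc at 0.94 ± 0.23 were lower and overlapped, and Fosb was lowest at 0.165 ± 0.0062. Among the genes with a count, these vehicle levels lay between the 28.9th percentile, for Fosb, and the 71.1st, for Egr3. With 10HDA the level of Egr3 was 3.03 ± 1.12 CPM per kilobase, below those of Nr4a2, Ier2, Nr4a1, Npas4 and Egr1 and next to that of Junb at 2.91 ± 0.40.

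With 10HDA, Egr3 was at less than 50% of its vehicle level in each of the 3 cultures, and the other 9 members did not pass the test in any comparison made. The study kept a gene only if 3 or more libraries reached 10 CPM and tested with edgeR at an adjusted p under 0.1. Only Egr1, Npas4, Nr4a1 and Nr4a2 reached that level, so 4 of the 10 members were tested under it. Of the others, Fos, Junb, Egr3, Arc and Ier2 were kept by the lower count limit of edgeR's filterByExpr, and Fosb was tested only without a filter. Under the filter of the study 0 of the 4 members passed with edgeR, where 0.627% of the 10520 genes passed. Of the 4, 0 had an unadjusted p under 0.05, as 1059 of the 10520 genes had. With the culture added to the fit as a block, 0 of 4 passed, where 8.98% of the genes passed. In that fit 1 of the 4, Egr1, had an unadjusted p under 0.05, as 2105 of the 10520 genes had. DESeq2 and limma-voom also called 0 of the 4. Among the 15676 genes that filterByExpr kept, 0 of 9 members passed without the block, where 0.498% of genes passed, and 1 of 9, Egr3, passed with it, where 7.33% passed. With no filter, Egr3 passed and 9 of the 10 did not, whether culture was left out of the fit (2.37% of genes passed) or included (5.02%). The median log2 fold change was -0.020 over the 4 members under the filter of the study and -0.0095 over all genes tested, and it was -0.018 over the 9 and 0.013 over all genes kept by filterByExpr.

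**Figure D1:**
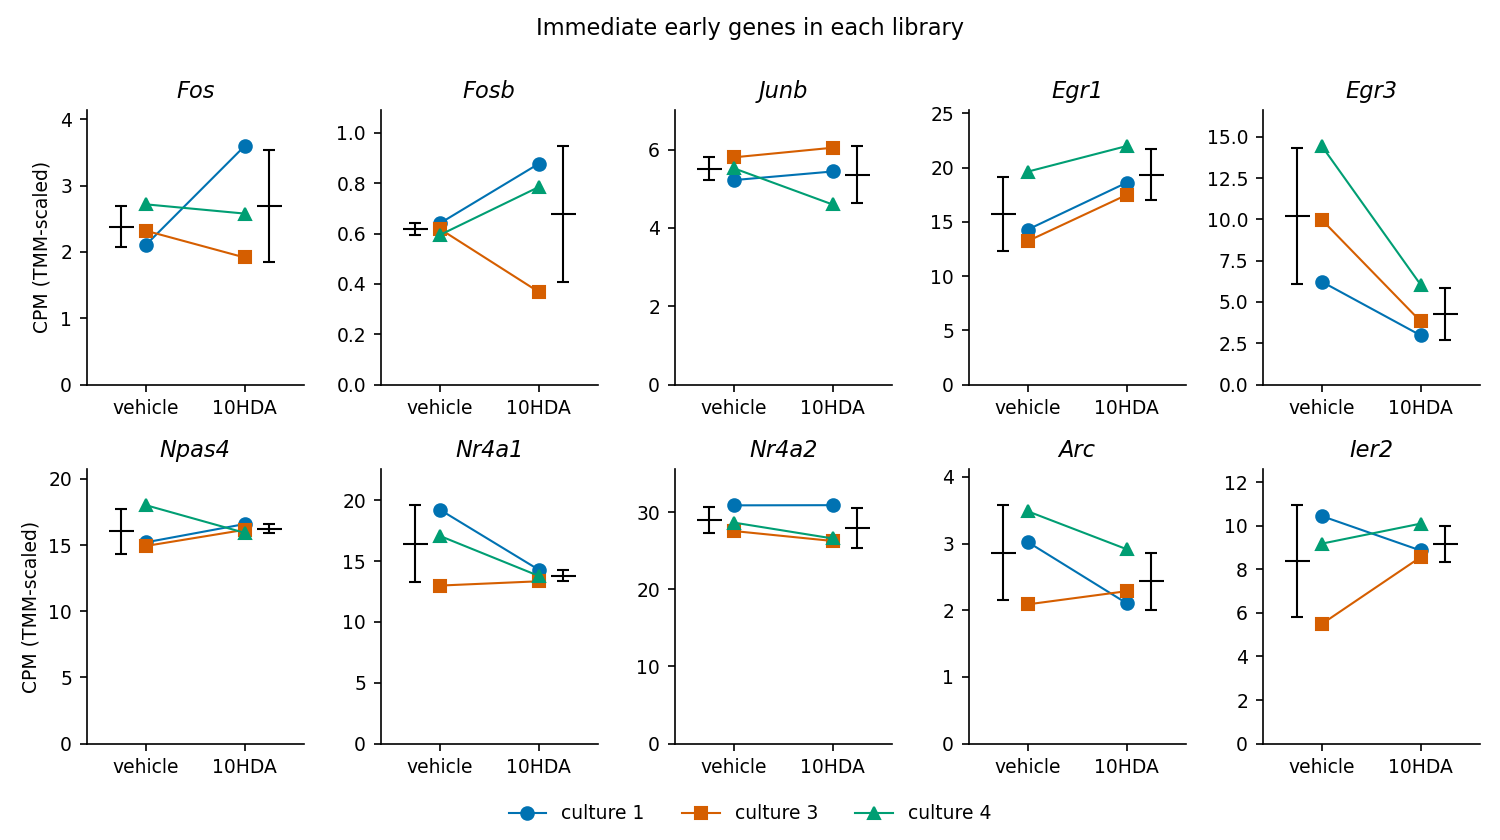
CPM of each immediate early gene (vertical axes, CPM with TMM scaling, from 0) with vehicle and 10HDA, with 1 line per culture and, beside the points, the mean and SD of the 3 libraries in black. Egr3 is the one panel in which the vehicle libraries, at 6.23 to 14.4 CPM, all lie above the 10HDA libraries, at 2.98 to 6.06 CPM.

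Egr3 encodes a zinc-finger transcription factor of the EGR family that binds the same GC-rich element as EGR1 and is induced by neuronal activity and by growth factors. It is a protein-coding gene on the plus strand of chromosome 14 (GRCm38, 70077203 to 70082614, ENSMUSG00000033730.3). The vehicle libraries of cultures 1, 3 and 4 had 6.23, 9.98 and 14.4 CPM, from 68, 129 and 170 counts. The 10HDA libraries of the same cultures had 2.98, 3.83 and 6.06 CPM, from 34, 52 and 54 counts. The treatments did not overlap, although the lowest vehicle library, of culture 1, was close to the highest 10HDA library, of culture 4. The order of the cultures was the same with both treatments, with culture 1 lowest and culture 4 highest.

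The 10HDA library stood at 47.9% of the vehicle library in culture 1, at 38.4% in culture 3 and at 41.9% in culture 4. The means were 10.2 ± 4.11 CPM with vehicle and 4.29 ± 1.59 CPM with 10HDA (SD, n = 3). Without a culture term the log2 fold change was -1.27 (SE 0.31, 95% interval -1.94 to -0.60), a fold of 0.415, and it missed the threshold (edgeR on the genes kept by filterByExpr, adjusted p = 0.17). With culture as a block the log2 fold change was -1.23 (SE 0.18, 95% interval -1.60 to -0.87), and it passed (adjusted p = 0.00013). The fitted coefficient of variation of Egr3 between libraries was 0.24 without the culture term and 0.10 with it. Of the 15676 genes, 19 had a lower log2 fold change and 128 a smaller p without the culture term, and 20 and 31 with it. The exact two-sided permutation test of 3 libraries against 3 gave p = 0.1, the smallest it can give.

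Leaving out culture 1, whose Y-linked genes are at odds with its label, gave Egr3 a log2 fold change of -1.30 with culture as a block (adjusted p = 4.79e-07) and of -1.32 without it (adjusted p = 0.30). Leaving out culture 3 or culture 4 in the block fit gave -1.18 (adjusted p = 1.78e-05) and -1.24 (adjusted p = 0.0031). These block fits rest on fewer cultures than the full one, so an adjusted p below its 0.00013 is not stronger evidence. Without a culture term, leaving out the vehicle library of culture 1 or the 10HDA library of culture 4 brought Egr3 past the threshold, at -1.52 (adjusted p = 0.070) and -1.59 (adjusted p = 0.021). The tests of DESeq2 (adjusted p = 0.0088) and of edgeR with no filter (adjusted p = 8.35e-07) also passed without a culture term, and limma-voom did not (adjusted p = 0.21). Over all alternatives the log2 fold change ran from -1.59 to -0.94, with adjusted p between 4.79e-07 and 0.67. The direction was the same in every one of them.

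In bulk RNA, fewer cells of a type and less RNA per cell cannot be told apart, and markers of several cell types were also lower with 10HDA. The neuron markers summed to 6036 to 6328 CPM with vehicle and to 4921 to 5536 CPM with 10HDA, which was 84.3%, 81.5% and 87.5% of vehicle in cultures 1, 3 and 4. The means of 7 of the 8 neuron markers were lower, 0 passed without and 3 with the culture block, and none was at 0. Marker calls here are among the genes kept by filterByExpr, where 0.498% passed without and 7.33% with the block. The astrocyte markers summed to 1139 to 1412 CPM with vehicle and to 854 to 1079 CPM with 10HDA, and all 8 were lower. Of the 7 that filterByExpr kept, 3 passed without and 4 with the block. The 10HDA means of Gfap, Aldh1l1, Aqp4 and Aldoc were 41.2%, 49.4%, 56.8% and 57.0% of vehicle. Those of Slc1a2, Slc1a3, Gja1 and S100b were 86.9%, 85.5%, 81.4% and 74.9%. The oligodendrocyte-lineage markers summed to 326 to 408 and 244 to 353 CPM, and 1 of the 6 passed without and 3 with the block. Within that list the 10HDA means of Sox10, Pdgfra and Cspg4 were 36.0%, 43.3% and 52.7% of vehicle, and those of Olig1, Olig2 and Mbp were 104%, 118% and 95.8%. The progenitor markers summed to 311 to 370 and 296 to 366 CPM. The endothelial and pericyte markers were at 45.4%, 60.4% and 42.8% of vehicle in cultures 1, 3 and 4, against 47.9%, 38.4% and 41.9% for Egr3, and summed to 17.4 to 19.1 CPM with vehicle and 7.90 to 10.8 CPM with 10HDA. Most of that sum was the pericyte marker Pdgfrb, at 6.17 to 16.1 CPM, with a 10HDA mean at 47.0% of vehicle. The other pericyte marker, Rgs5, had at most 0.897 CPM in any library, and its 10HDA mean was at 123% of vehicle. Of the endothelial markers Pecam1 had 0.439 to 1.27 CPM and Kdr 0.516 to 1.24 CPM, with 10HDA means at 50.2% and 58.2% of vehicle. Cldn5 and Cdh5 did not exceed 0.147 and 0.183 CPM in any library, with 10HDA means at 161% and 47.9% of vehicle. Of these 6 markers filterByExpr kept 1, so that only 1 was tested, and it passed without and with the block. The fibroblast markers summed to 9.94 to 12.2 and 6.34 to 6.49 CPM. Of the 4, filterByExpr kept 2, and 1 of these 2 passed without and with the block. Most of that sum was Dcn, with a 10HDA mean at 48.9% of vehicle. The means of Col1a1, Col1a2 and Lum were at 96.0%, 125% and 87.2%. Of the microglial markers, all 6 were under 1 CPM in every library and 1, Tmem119, was at 0 in all of them. The part of these cell types in the level of Egr3 was not tested.

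**Figure D2:**
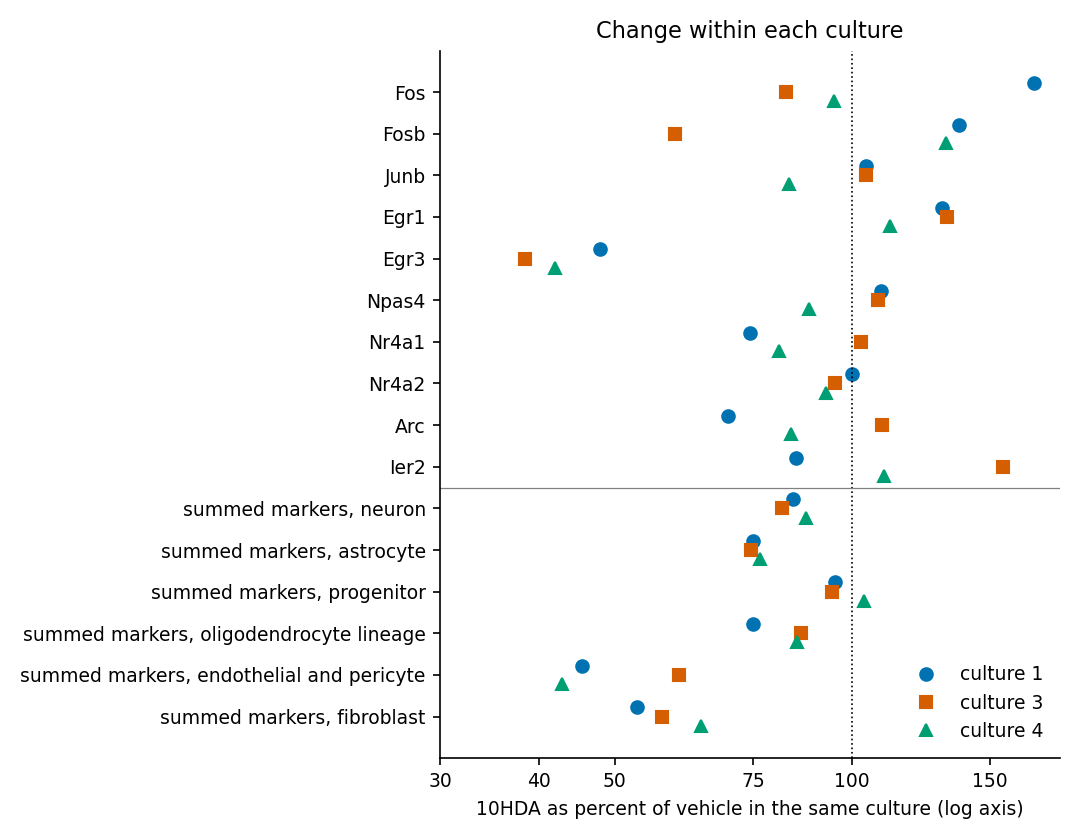
The 10HDA library as a percent of the vehicle library of the same culture (horizontal log axis, 100 = no difference) for each immediate early gene and, under the grey line, for summed markers of 6 cell types, with 1 symbol per culture. Egr3 lies at 38.4% to 47.9%, left of the other members and of the neuron markers at 81.5% to 87.5%, and the endothelial and pericyte markers lie at 42.8% to 60.4%.

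Egr1, the best known EGR factor and a standard marker of neuronal activation, was not lower. It lies on the plus strand of chromosome 18 (GRCm38, 34859823 to 34864984). The vehicle libraries of cultures 1, 3 and 4 had 14.3, 13.2 and 19.6 CPM, and the 10HDA libraries had 18.6, 17.5 and 22.0 CPM. The 10HDA library was the higher of the pair in all 3 cultures, at 130%, 132% and 112% of vehicle, but the treatments overlapped, because the vehicle library of culture 4 exceeded the 10HDA libraries of cultures 1 and 3. The log2 fold change was 0.30 (SE 0.17, 95% interval -0.080 to 0.67, adjusted p = 0.57) without and 0.31 (SE 0.13, 95% interval 0.053 to 0.57, adjusted p = 0.16) with the culture block. Its unadjusted p with the block was 0.020, and it did not pass the correction. Without culture 1 the block fit gave 0.30 (adjusted p = 0.31).

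Egr3 and Egr1 therefore stood in different proportion with the treatments. Per kilobase, the level of Egr3 was 1.38, 2.39 and 2.33 times that of Egr1 in the vehicle libraries of cultures 1, 3 and 4, and 0.508, 0.695 and 0.872 times in the 10HDA libraries. The ratio exceeded 1 in all 3 vehicle libraries and in 0 of the 3 10HDA libraries. That crossing depends on the gene lengths used, since in CPM Egr3 was below Egr1 in every library. The remaining EGR genes, which were not members, were scarcer and did not pass in either fit. Egr2, known also for its part in peripheral myelination, had 1.81 CPM with vehicle and 1.55 CPM with 10HDA, and Egr4 had 2.94 and 2.24 CPM. Their log2 fold changes without a culture term were -0.21 (adjusted p = 0.81) and -0.39 (adjusted p = 0.60).

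The AP-1 members Fos, Fosb and Junb encode leucine-zipper proteins that pair with each other and with Jun. Fos (chromosome 12, 85473890 to 85477273, plus strand) had 2.11, 2.32 and 2.72 CPM in the vehicle libraries of cultures 1, 3 and 4 and 3.60, 1.92 and 2.58 CPM in the 10HDA libraries. Its highest and its lowest value were both 10HDA libraries, those of cultures 1 and 3, and the treatments overlapped. The log2 fold change was 0.18 (SE 0.28, 95% interval -0.43 to 0.79, adjusted p = 0.84), and its sign turned when the 10HDA library of culture 1 or the whole culture was left out. Junb (chromosome 8, 84974484 to 84978718, minus strand) had 5.22, 5.80 and 5.52 CPM with vehicle and 5.44, 6.05 and 4.60 CPM with 10HDA. The treatments overlapped and the log2 fold change was -0.018 (SE 0.19, 95% interval -0.43 to 0.39, adjusted p = 0.98). Junb overlaps the peroxiredoxin gene Prdx2 on the opposite strand, and since the sources used here do not say whether strand was used in counting, reads of the overlap may not be assigned to the right gene.

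Fosb (chromosome 7, 19302696 to 19310051, minus strand), whose short splice form accumulates with repeated stimulation, was near the limit of what this depth can measure. It had 0.641, 0.619 and 0.595 CPM with vehicle, from 7, 8 and 7 counts, and 0.877, 0.369 and 0.785 CPM with 10HDA, from 10, 5 and 7 counts. The treatments overlapped. The log2 fold change without a filter was 0.094 (SE 0.50), with a 95% interval of -0.89 to 1.08. That interval is wide, and changes approaching 2-fold either way lie within it.

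Npas4 encodes a basic helix-loop-helix factor that responds to calcium influx and hardly to other signals, and it regulates inhibitory synapses. It lies on the minus strand of chromosome 19 (4984355 to 4990316). The vehicle libraries of cultures 1, 3 and 4 had 15.2, 14.9 and 18.01 CPM and the 10HDA libraries 16.6, 16.1 and 15.9 CPM. The 3 10HDA values lay inside the range of the vehicle values. The log2 fold change was 0.016 (SE 0.13, 95% interval -0.28 to 0.31, adjusted p = 0.97).

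Nr4a1 and Nr4a2 encode orphan nuclear receptors. Nr4a1, also known as Nur77, lies on the plus strand of chromosome 15 (101254269 to 101274795) and had 19.2, 12.99 and 17.1 CPM with vehicle and 14.3, 13.3 and 13.8 CPM with 10HDA. The 3 10HDA libraries differed little among themselves, with an SD of 0.48 CPM against 3.17 CPM with vehicle, and the treatments overlapped. The log2 fold change was -0.25 (SE 0.16, 95% interval -0.60 to 0.10, adjusted p = 0.61) without and -0.23 (SE 0.14, adjusted p = 0.37) with the culture block. Nr4a2, or Nurr1, which is required for midbrain dopamine neurons and also marks some deep cortical neurons, lies on the minus strand of chromosome 2 (57106830 to 57124003). It had 30.9, 27.5 and 28.6 CPM with vehicle and 30.9, 26.2 and 26.6 CPM with 10HDA, so that both libraries of culture 1 were highest in their treatments. Its log2 fold change was -0.055 (SE 0.12, 95% interval -0.32 to 0.21, adjusted p = 0.89), and with library size alone as the scaling its sign turned, to 0.021.

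Arc encodes a cytoskeleton-associated protein that promotes the removal of AMPA receptors from synapses and whose RNA travels to dendrites. It lies on the minus strand of chromosome 15 (74669083 to 74672570). The vehicle libraries had 3.02, 2.09 and 3.48 CPM and the 10HDA libraries 2.11, 2.29 and 2.92 CPM. The treatments overlapped, and the log2 fold change was -0.23 (SE 0.27, 95% interval -0.81 to 0.35, adjusted p = 0.78). Ier2, a small nuclear protein induced by growth factors, lies on the minus strand of chromosome 8 (84661331 to 84662852). It had 10.4, 5.49 and 9.17 CPM with vehicle and 8.86, 8.55 and 10.1 CPM with 10HDA, with the vehicle library of culture 3 below the other 5. The log2 fold change was 0.15 (SE 0.22, 95% interval -0.34 to 0.63, adjusted p = 0.84).

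**Figure D3:**
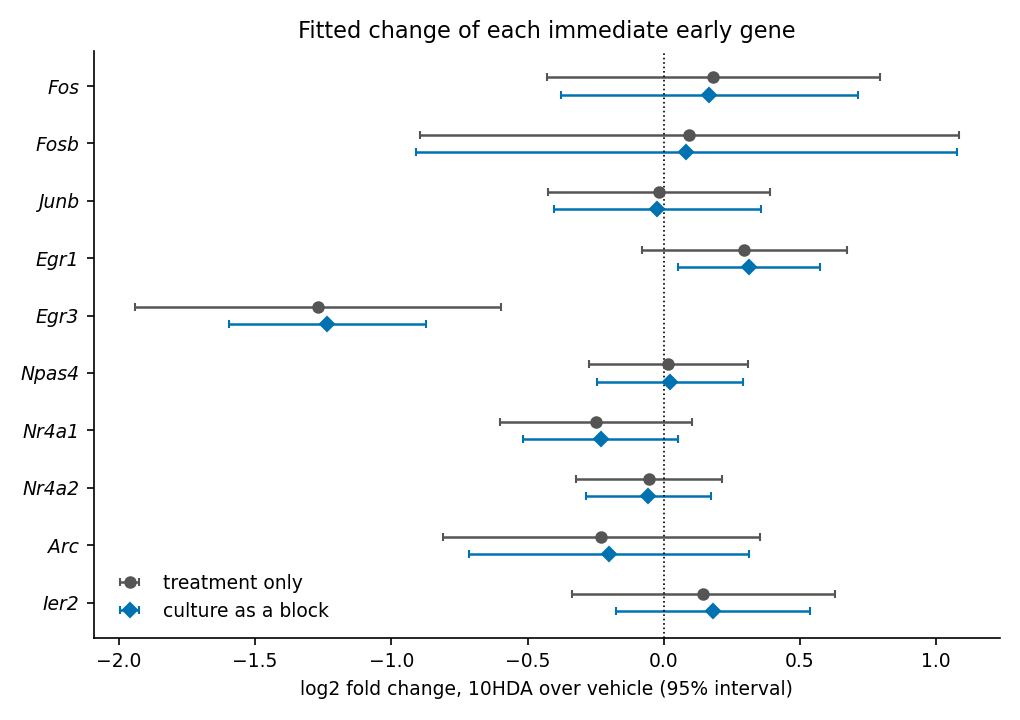
Fitted log2 fold change of each immediate early gene, 10HDA over vehicle (horizontal axis), with its 95% interval, without a culture term (grey circles) and with culture as a block (blue diamonds). The intervals of Egr3, -1.94 to -0.60 and -1.60 to -0.87, lie wholly below 0, and that of Egr1 lies above 0 only with the block, at 0.053 to 0.57, where its adjusted p was 0.16.

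The 10 genes did not all move in 1 direction. Egr3 was lower and Egr1 was higher with 10HDA in all 3 cultures, and the other 8 members did not keep 1 direction. Nr4a2 is among the 8 through culture 1, at 100.07% of vehicle, with cultures 3 and 4 at 95.3% and 92.8%. Of the 9 members that filterByExpr kept, Egr3 and Egr1 kept 1 direction, where 38.4% of the 15676 genes did. Whether the members differ from other genes in this was not tested. Of the 9 members among those genes, 1 had treatments that did not overlap, where 13.7% of genes did, and under the filter of the study it was 0 of 4, where 13.4% did. Over the 6 libraries, 28 of the 45 pairs of members had a Pearson correlation of log2 CPM above 0, with a median of 0.087. The correlations ran from -0.67, for Fosb and Junb, to 0.81, for Fos and Fosb, which have few counts, and all share the same 6 libraries. The tested genes whose log2 CPM ran most like the mean of Egr1, Npas4, Nr4a1 and Nr4a2 over the 6 libraries, among 10516 genes, were ENSMUSG00000096952.1, which has no symbol in the table used, with r = 0.985, Mrps18b, with 0.984, Ebna1bp2, with 0.973, Tti2, with 0.972, and Msantd3, with 0.970. With so many genes and 6 libraries these values are a description only.

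Other genes of the pathway were taken from lists of known rapid-response genes, delayed targets, upstream factors and partners. Of 37 other rapid-response genes, 23 were tested under the filter of the study, 12 with a higher and 11 with a lower fitted value, a median log2 fold change of 0.0023, and 0 calls. With culture as a block 3 rose and 1 fell of the 23, where 8.98% of all genes tested passed. Btg2, an antiproliferative gene that is also a target of p53, had 16.6, 20.6 and 13.9 CPM with vehicle and 23.9, 34.1 and 22.3 CPM with 10HDA in cultures 1, 3 and 4, and its treatments did not overlap (log2 fold change 0.65 with the block, SE 0.12, adjusted p = 0.001). Ppp1r15a, which reverses eIF2alpha phosphorylation, went from 28.3 to 37.3 CPM on average (0.39, adjusted p = 0.031), and Ier5 from 27.1 to 34.9 CPM (0.36, adjusted p = 0.068). Jun, the main AP-1 partner of FOS, had 80.1, 69.7 and 72.8 CPM with vehicle and 44.4, 59.3 and 57.4 CPM with 10HDA. Each of its 10HDA libraries was below each vehicle library (log2 fold change -0.47 with the block, SE 0.11, adjusted p = 0.012). Among the genes kept by filterByExpr, Ccn1, which encodes a secreted matrix protein, also fell with the block, from 3.83 to 2.28 CPM (-0.74, adjusted p = 0.070).

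Of 13 delayed activity-response genes, which the immediate early factors help to induce, 5 were tested, with 0 calls and a median log2 fold change of -0.0072. With the block 1 of the 5 passed, where 8.98% of all genes tested did. Vgf, which encodes a secreted neuropeptide precursor, had 67.5, 51.3 and 81.3 CPM with vehicle and 97.2, 76.2 and 117 CPM with 10HDA in cultures 1, 3 and 4. The treatments overlapped between cultures, and within each culture the 10HDA library was higher (log2 fold change 0.54 with the block, SE 0.097, adjusted p = 0.001). Rgs2, an inhibitor of G protein signalling, went the other way, from 25.7 to 20.6 CPM, and did not pass (-0.32, adjusted p = 0.11 with the block). Rasgrp1, an activator of RAS with 9.86 CPM with vehicle and 6.93 CPM with 10HDA, fell with the block among the genes kept by filterByExpr (-0.49, adjusted p = 0.093).

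Of 31 upstream factors, kinases, channels and receptors, 28 were tested, 8 with a higher and 20 with a lower fitted value, a median of -0.12, and 0 calls. With the block 4 of the 28 fell and 0 rose, where 8.98% of all genes tested passed. Camk4, the nuclear calcium-calmodulin kinase that phosphorylates CREB, had 138, 192 and 206 CPM with vehicle and 118, 112 and 154 CPM with 10HDA, lower in each culture (-0.47, SE 0.10, adjusted p = 0.005). Camk2a, the synaptic kinase, had 189, 192 and 242 CPM with vehicle and 148, 158 and 154 CPM with 10HDA, and its treatments did not overlap (-0.43, SE 0.096, adjusted p = 0.007). Mapk3, which encodes ERK1, went from 184 to 147 CPM (-0.31, adjusted p = 0.057), and Mef2c, an activity-regulated transcription factor of cortical neurons, from 736 to 599 CPM (-0.29, adjusted p = 0.074). Creb1 itself had 84.7 CPM with vehicle and 85.2 CPM with 10HDA and Srf had 52.5 and 48.9 CPM, neither past the test. Camk4 and Camk2a are expressed mainly in neurons, and the neuron marker sums given above stood at 81.5% to 87.5% of vehicle in the same libraries. Whether they moved with the share of neurons was not tested.

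All 7 partners and corepressors were tested, with a median of -0.064 and 0 calls. With the block 1 of the 7 fell. Nab1, a corepressor that binds EGR factors, had 52.0 CPM with vehicle and 41.9 CPM with 10HDA (-0.32, adjusted p = 0.065). Nab2, its relative and itself a target of EGR factors, had 12.0 and 11.0 CPM and did not pass (-0.12, adjusted p = 0.71). Rxra, a partner of NR4A receptors, had 11.8 and 13.2 CPM (0.17, adjusted p = 0.56 with the block). Over the 4 lists together, where 23, 5, 28 and 7 genes were tested, 10 genes passed with the block and 0 without it. Of all genes tested, 8.98% passed with the block and 0.627% without it. In the block fit, leaving out culture 1, 3 or 4 brought the number from 10 to 10, 9 and 4.

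**Figure D4:**
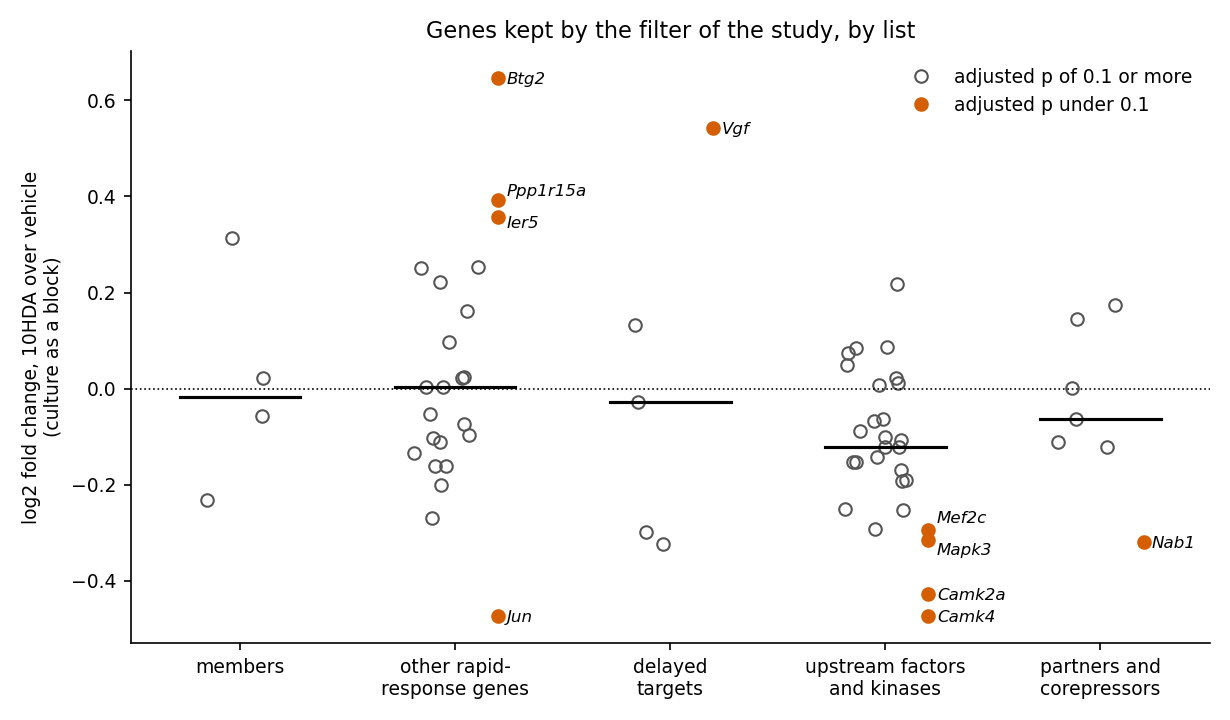
Log2 fold change with culture as a block, 10HDA over vehicle (vertical axis), of the genes that the filter of the study kept, by list (horizontal axis). Each circle is a gene, filled and named where the adjusted p was under 0.1, and black lines are medians, which lie at -0.017 for the 4 members tested and at -0.12 for the 28 upstream genes.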

How the data were processed

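The authors aligned untrimmed 50-base reads to mm10 with Subjunc (Subread 1.4.4), counted them per Gencode gene with featureCounts and deposited raw counts, without normalization or filter. Library preparation was strand-specific, and strand use in counting is not given in the sources used here. TMM scaling and the quasi-likelihood test of edgeR 4.0.16 (R 4.3.3) were applied to the counts, using the filter of the study (10 CPM in 3 libraries), Benjamini-Hochberg adjustment over all genes tested and a threshold of 0.1. The fit had treatment only, and members under the filter were fitted with filterByExpr or, for Fosb, no filter. P-values reflect 3 cultures, or fewer where a culture was left out. Libraries of a culture are paired by their labels, and their deviations from treatment means correlated across genes at 0.37, 0.23 and 0.62, against -0.45 to 0.19 between cultures. DESeq2 1.42.0 and limma 3.58.1 were alternatives. Members, gene lists and tests were chosen with earlier results of these data known. All members were named. In the other lists, genes past the threshold and the 2 largest changes were named, and Egr2, Egr4, Creb1, Srf and Nab2 were added after their values were seen. Correlations used a pseudocount of 0.5 CPM. Symbols and gene coordinates came from GENCODE M21, which matched 98% of identifiers. Scripts were tested on simulated data.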

Additional observations from a re-analysis of the deposited data

How the results depend on the processing

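Under the filter of the study, the 66 genes called became 945 with culture as replicate block, 636 with no filter, 170 with the DESeq2 Wald test and 43 at a threshold of 0.05. Leaving out libraries or cultures gave 0 to 1089. Without a culture term the number was 0 without the 10HDA library of culture 1, 27 without that of culture 3, 355 without that of culture 4, and 101, 2 and 10 without the vehicle libraries of cultures 1, 3 and 4. It was 2, 0 and 35 without culture 1, 3 or 4, and with the block 869, 1089 and 358. The members called went from 0 to 1, Egr3, with no filter. Among the genes kept by filterByExpr they went from 0 to 1, again Egr3, with the culture as replicate block and with the DESeq2 Wald test, and were 0 to 1 with libraries or cultures left out. Of the 4 members under the filter of the study, which leave out Egr3, 0 to 2 had treatments that did not overlap under such omissions. The share over all genes was not computed for these omissions, and with fewer libraries treatments overlap less often. Calls in the other lists went from 0 to 10 with culture as replicate block, 5 with no filter and 3 with the DESeq2 Wald test, and were 0 to 10 with omissions. The median log2 fold change of the members stayed between -0.066 and 0.058. With library size alone the sign turned for Junb, to 0.046, and for Nr4a2, to 0.021. With libraries or cultures left out, the log2 fold change ran from -0.17 to 0.39 for Fos, -0.19 to 0.42 for Fosb, -0.13 to 0.060 for Junb, -0.029 to 0.13 for Npas4, -0.13 to 0.014 for Nr4a2 and -0.092 to 0.39 for Ier2. Egr1, Egr3, Arc and Nr4a1 kept their sign in every alternative. The causes of these changes were not tested. The settings that combined filterByExpr or no filter with another choice, and the block with a culture left out, were chosen after seeing the data. Depth limits Fosb most, at 5 to 10 counts a library.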
